A study of Mus musculus with 2 samples.

Results

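The cytochrome P450 genes described here are the mouse genes whose symbol is Cyp followed by a family number, a subfamily letter and a gene number, with the retinoic acid-clearing Cyp26 subfamily left out. This rule took 91 of the 32285 genes counted in each library, from 101 symbols that begin with Cyp and a digit, and used no measured value. The 10 symbols outside it include any of another form, such as Cyp51 or a gene number followed by a letter. Counts and shares of a subfamily therefore cover the members only. Their unique molecular identifiers (UMIs, 1 for each captured RNA molecule) were counted by single-nucleus RNA sequencing in 2 libraries of pooled mouse kidneys, 1 per age. The E18.5 library came from embryos of the genotype Mycf/f;Mycnf/f, which carry floxed alleles of Myc and Mycn and no Cre, on a mixed background. The P3 library came from Wild type pups at postnatal day 3, for which the labels give C57BL/6J and the study's methods a mixed background. Male and female kidneys were pooled at both ages. The releases of the counting software named in the 2 matrices also differ. Age, genotype, strain, library and release therefore changed together and cannot be told apart, and with 1 library per age no difference between the ages or between nuclei has a replicate check or a test.

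Cytochromes P450 are haem enzymes that insert an oxygen atom into fatty acids, sterols, vitamin D and foreign chemicals, taking electrons from the reductase Por in the endoplasmic reticulum or from ferredoxin in mitochondria. In the kidney they are best known in the proximal tubule, where Cyp27b1 makes the active hormone of vitamin D, Cyp24a1 degrades it, and Cyp2j and Cyp4a enzymes turn arachidonic acid into epoxides and into the hydroxylated lipid 20-HETE. Members of the Cyp1, Cyp2 and Cyp3 families are better known as drug-metabolising enzymes of the liver.

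After filtering, 21270 of 21600 nuclei were kept at E18.5 with a median of 3132.5 UMIs, and 11765 of 12216 at P3 with a median of 4534. The libraries shared 69 barcode strings. Doublet scoring marked 16.4% and 16.8% of the kept nuclei. Clusters rich in such nuclei were left unnamed, as were clusters with too few or ambiguous markers (11421 nuclei at E18.5 and 4639 at P3 in all). Clusters were formed without any Cyp gene and named from marker genes, so no P450 gene defined a class. Levels are given in CPM, the usual depth-scaled unit of count data, from the UMIs of a gene and all UMIs of a class, and every interval in brackets is an exact 95% interval that covers counting error only, since nuclei are not replicates. In these pooled nuclei, fewer expressing nuclei and less RNA per nucleus cannot be told apart from a CPM alone.

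The maturing proximal tubule-like class held 1042 nuclei at E18.5 and 978 at P3, and its defining transporter genes were present, with Slc34a1 at 2311 and 5020 CPM. At E18.5 it consisted of an Slc5a12-led cluster of 609 nuclei and a cluster rich in Slc22a27 of 433 nuclei, and at P3 of 1 Slc5a12-led cluster. At P3 an unnamed cluster of 787 nuclei shared the leading genes Slc22a27, Slc34a1 and Aspa with the Slc22a27-rich cluster. Of its nuclei, 91.0% were scored as doublets. Unnamed, doublet-rich clusters of 200 and 186 nuclei at E18.5 also had Slc22a27 among their leading genes. Age ratios of the whole class may therefore not compare like nuclei. A second proximal tubule class, rich in Slc7a13, held 115 and 333 nuclei. Its Slc34a1 level was 137 CPM at E18.5 and 1226 CPM at P3, and its Slc7a13 level 349 and 187 CPM. Age ratios of this class may therefore not compare like nuclei either. No cluster met the marker rule for immature proximal tubule, so a Cdh6-led early nephron-like class of 512 and 245 nuclei served as the less mature neighbour. Its Cdh6 level was 2777 CPM at E18.5 and 2402 CPM at P3, and its Slc34a1 level 167 and 429 CPM. Erythroid genes, summed over 9 markers, differed between the libraries in these classes, at 680 CPM in maturing nuclei at E18.5 against 106 CPM at P3, and their part in the results was not tested. The ureteric epithelium-like class came from clusters with different leading genes at the 2 ages. Its 458 nuclei at E18.5 were led by Kcnh7, Mgat4c and Frmpd4, while Ctnnd2, Slco4c1 and Grik2 were among the leading genes of its 280 nuclei at P3. Those 3 genes were also among the leading genes of an unnamed, Nrg3-led cluster of E18.5, so ureteric values of the 2 ages may not compare like nuclei.

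Members of a P450 subfamily tend to lie side by side, and the Cyp2j and Cyp4a genes do so here. On chromosome 4 of mm10 the 8 Cyp2j genes occupied 636.6 kb (GENCODE annotation, 96027534 to 96664154), all on the minus strand, in the order Cyp2j13, Cyp2j12, Cyp2j7, Cyp2j11, Cyp2j8, Cyp2j6, Cyp2j9 and Cyp2j5. The 5 Cyp4a genes among the members occupied 379.5 kb of the same chromosome (115242084 to 115621602). Cyp4a10, Cyp4a31 and Cyp4a32 were near copies, with transcripts 95.7% to 97.2% identical, and 29.8% of the 50-base stretches of Cyp4a10 and 19.0% of those of Cyp4a31 occurred in another P450 transcript. UMIs could therefore be split among these 3 genes, and their separate values are uncertain. Cyp4a14 shared no such stretch, and for the Cyp2j genes the share was at most 2.32%.

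The promoters of 4 Cyp2j genes are shown because these neighbours had different distributions over the kidney, together with those of Cyp2d26 and Cyp27b1 as proximal tubule genes from other chromosomes. Each line runs 5′ to 3′ from 250 bases before the RefSeq transcription start to 50 bases after it, on build GRCm38.p6.
Cyp2j13, chr4:96077491-96077790, minus strand: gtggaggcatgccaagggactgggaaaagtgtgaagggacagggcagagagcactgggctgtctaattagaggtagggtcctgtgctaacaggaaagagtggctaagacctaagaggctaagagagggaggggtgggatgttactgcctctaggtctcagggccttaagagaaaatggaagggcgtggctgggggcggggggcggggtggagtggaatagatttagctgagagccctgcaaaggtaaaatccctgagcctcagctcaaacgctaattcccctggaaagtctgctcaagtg
Cyp2j11, chr4:96348631-96348930, minus strand: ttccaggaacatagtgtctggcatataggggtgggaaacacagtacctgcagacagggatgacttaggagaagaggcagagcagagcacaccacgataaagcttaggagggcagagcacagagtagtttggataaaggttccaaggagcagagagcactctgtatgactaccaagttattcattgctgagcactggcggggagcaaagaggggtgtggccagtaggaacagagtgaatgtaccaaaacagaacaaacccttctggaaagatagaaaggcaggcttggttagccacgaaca
Cyp2j6, chr4:96553602-96553901, minus strand: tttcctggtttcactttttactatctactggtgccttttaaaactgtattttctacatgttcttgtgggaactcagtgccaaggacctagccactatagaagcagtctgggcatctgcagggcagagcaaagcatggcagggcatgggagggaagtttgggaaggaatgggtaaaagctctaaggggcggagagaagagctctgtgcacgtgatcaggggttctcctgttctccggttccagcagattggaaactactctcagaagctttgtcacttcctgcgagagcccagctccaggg
Cyp2j5, chr4:96664070-96664369, minus strand: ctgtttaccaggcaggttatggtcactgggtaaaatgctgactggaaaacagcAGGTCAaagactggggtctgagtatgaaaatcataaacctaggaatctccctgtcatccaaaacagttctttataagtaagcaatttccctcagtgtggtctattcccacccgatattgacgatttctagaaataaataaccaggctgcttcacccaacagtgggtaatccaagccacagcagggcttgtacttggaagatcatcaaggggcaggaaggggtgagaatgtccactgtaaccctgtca
Cyp2d26, chr15:82794196-82794495, minus strand: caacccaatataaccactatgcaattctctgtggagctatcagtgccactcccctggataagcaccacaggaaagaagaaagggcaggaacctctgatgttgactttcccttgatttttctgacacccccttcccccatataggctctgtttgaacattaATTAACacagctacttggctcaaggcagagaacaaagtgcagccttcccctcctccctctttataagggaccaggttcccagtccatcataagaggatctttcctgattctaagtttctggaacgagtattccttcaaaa
Cyp27b1, chr10:127047996-127048295, plus strand: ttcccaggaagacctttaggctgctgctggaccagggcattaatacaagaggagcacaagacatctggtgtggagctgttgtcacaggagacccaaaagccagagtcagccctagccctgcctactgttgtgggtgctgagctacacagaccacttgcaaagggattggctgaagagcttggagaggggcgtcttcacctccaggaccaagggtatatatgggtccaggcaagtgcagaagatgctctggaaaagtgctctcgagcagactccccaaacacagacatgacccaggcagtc
Capitals mark AGGTCA, the core letters of many nuclear receptor elements, or GTTAAT, the core letters of elements bound by HNF1 factors, both searched on either strand. Of the 6 windows, only that of Cyp2j5 contained AGGTCA, starting at base -197, and only that of Cyp2d26 contained GTTAAT, at base -90 on the opposite strand, so that its capitals show the reverse complement. Among all 32851 RefSeq promoter windows, 16.3% contained AGGTCA and 7.10% GTTAAT. Promoter entries were found for 70 of the 91 genes, 80 windows in all, of which 22 (27.5%) contained AGGTCA and 10 (12.5%) GTTAAT. A match describes letters and does not show a bound site. Cyp24a1, Cyp7b1, Cyp4a10, Cyp4a14, Cyp4a31, Cyp2d22 and Cyp2j7 had no entry.

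P450 transcripts were concentrated in a minority of the 91 members, but low counts were not particular to this family. Summed over the classes, 24 members at E18.5 and 29 at P3 reached 50 UMIs, beside 15930 and 16062 of all 32285 genes. Whether UMIs were more concentrated among the members than among all genes was not tested. At E18.5 73 members and at P3 74 had at least 1 UMI in the kept nuclei, 31 reached 100 UMIs over both libraries, 37 stayed under 10, and 8 were at 0 in both (Cyp11b2, Cyp1a2, Cyp2a4, Cyp2a5, Cyp2c40, Cyp2c50, Cyp4f37 and Cyp4f40). Of 77321253 and 70055219 UMIs in all, 53201 at E18.5 and 69677 at P3 fell on members. By role, 18 of the 26 arachidonic and fatty acid genes and all 4 vitamin D genes reached 100 UMIs, against 3 of 5 bile acid and oxysterol genes, 5 of 49 xenobiotic-type genes and 0 of 6 steroid synthesis genes. The remaining member, Cyp20a1, an orphan enzyme with no settled substrate, had 5150 and 4527 UMIs.

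The summed P450 level was highest in the proximal tubule at both ages. In maturing proximal tubule-like nuclei it was 1777 CPM (1736 to 1820) at E18.5 and 2371 CPM (2335 to 2408) at P3, and in the Slc7a13-rich class 1366 and 1756 CPM. The Cdh6-led class stood at 351 and 459 CPM, so that the maturing level was 5.07 and 5.17 times as high. Then came the interstitium-like nuclei, with 957 and 910 CPM, and the ureteric epithelium-like nuclei, with 697 and 990 CPM, the former higher at E18.5 and the latter at P3. Podocyte-like nuclei were lowest at both ages, with 255 and 282 CPM. A single gene, Cyp2j5, carried much of the proximal signal, and without it the maturing level was 966 and 1337 CPM, 3.01 and 3.17 times that of the Cdh6-led class. On the same footing the interstitium-like level was 932 and 892 CPM, the Slc7a13-rich level 818 and 968 CPM and the ureteric level 676 and 968 CPM. Without Cyp2j5 the maturing class thus stood close to the interstitium at E18.5, where its Slc5a12-led cluster alone, at 782 CPM, was lower, and the Slc7a13-rich class did not lead the other classes. That footing kept Cyp7b1, a large part of the interstitium-like and ureteric levels. With Cyp7b1 also left out, the maturing level was 936 and 1313 CPM and the Slc7a13-rich level 781 and 927 CPM. The interstitium-like level was then 453 and 428 CPM, the ureteric level 287 and 304 CPM and the distal tubule-like level 287 and 629 CPM.

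**Figure D1:**
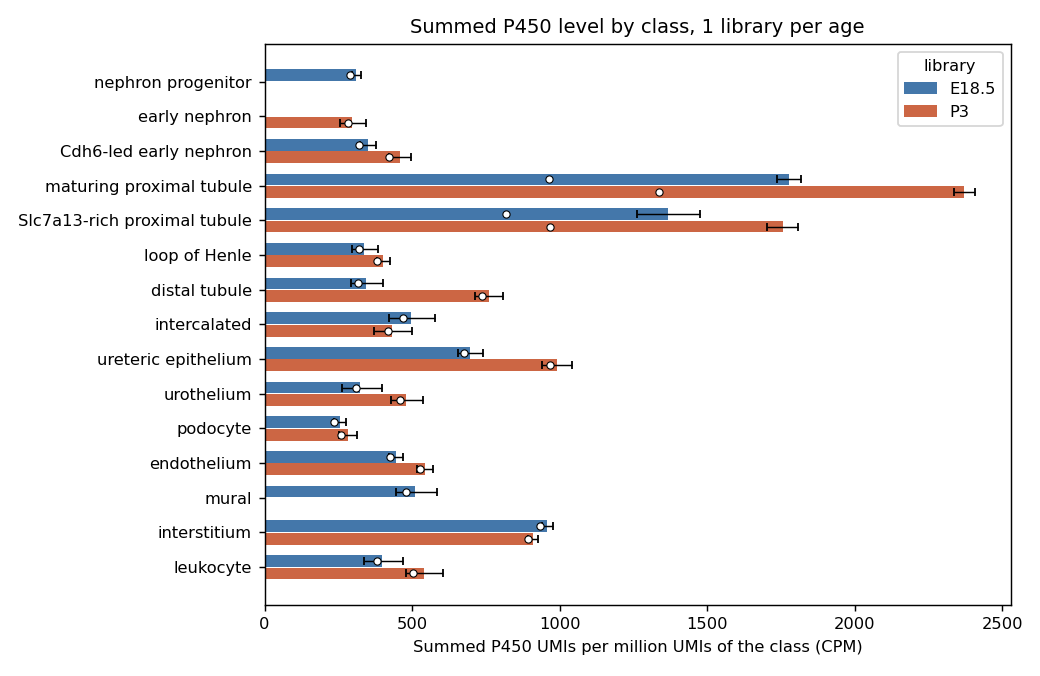
Summed P450 level in CPM (x axis) in each nuclei class (y axis) at E18.5 and P3, 1 library each. Bars show the value with its 95% counting interval and white circles the same sum without Cyp2j5; the 2 proximal tubule classes have the longest bars at both ages, from 1366 to 2371 CPM.

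Counted per nucleus, the proximal tubule classes also led. After every nucleus was thinned to 1000 UMIs, 72.4% of maturing nuclei at E18.5 (69.5 to 75.1) and 84.7% at P3 (82.2 to 86.9) retained a UMI of at least 1 member. As background, the shares in endothelium-like nuclei were 33.8% and 39.1%, and in leukocyte-like nuclei 35.2% and 41.0%. Without thinning, the shares in maturing nuclei were 92.1% and 99.2%, at median depths of 3496 and 6086.5 UMIs. A thinned maturing nucleus held 1.25 different members on average at E18.5 and 1.60 at P3, with at most 6 and 5. The averages were 0.965 and 1.37 in Slc7a13-rich nuclei. Closest outside the proximal tubule were interstitium-like nuclei with 0.816 and 0.775 and ureteric epithelium-like nuclei with 0.564 and 0.718, nearer than the background classes.

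Of the members with at least 50 UMIs over the maturing and Cdh6-led classes, 10 of 15 at E18.5 were at least 2 times higher in the maturing class and 1 was at least 2 times lower, beside 9.65% and 11.4% of all genes so compared. At P3 the counts were 11 of 18 higher and 2 lower, beside 12.6% and 15.9% of all genes. Median log2 ratios of the members were 2.10 and 1.89, against -0.14 and -0.22 over all genes. The 50-UMI rule summed both classes, and the maturing class held more UMIs, 3942938 against 1908506 at E18.5 and 6724233 against 1338165 at P3. Members high in the maturing class therefore passed more readily, several of them through its UMIs alone. These counts and medians are thus no separate support for a difference of the whole family. Cyp24a1, Cyp27b1, Cyp2d22, Cyp2d26, Cyp2j5, Cyp2j9, Cyp2j11 and Cyp4a31 were higher at both ages, Cyp2j6 and Cyp2j13 at E18.5, and Cyp2j7, Cyp4a10 and Cyp4a14 at P3. The lower members were Cyp39a1 at E18.5 and Cyp7b1 and Cyp20a1 at P3. Across all classes, a proximal tubule class held the highest level of 8 of 24 members at E18.5 and 9 of 29 at P3, beside 11.8% and 14.1% of all genes. For the other members tested, the highest value lay in another class, in several cases by less than counting error over the next. The same held for Cyp4f17, counted as proximal at P3, with a ratio of 1.06 (0.610 to 1.96) to early nephron-like nuclei. After thinning the P3 count was 8 of 21, without Cyp4f17.

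**Figure D2:**
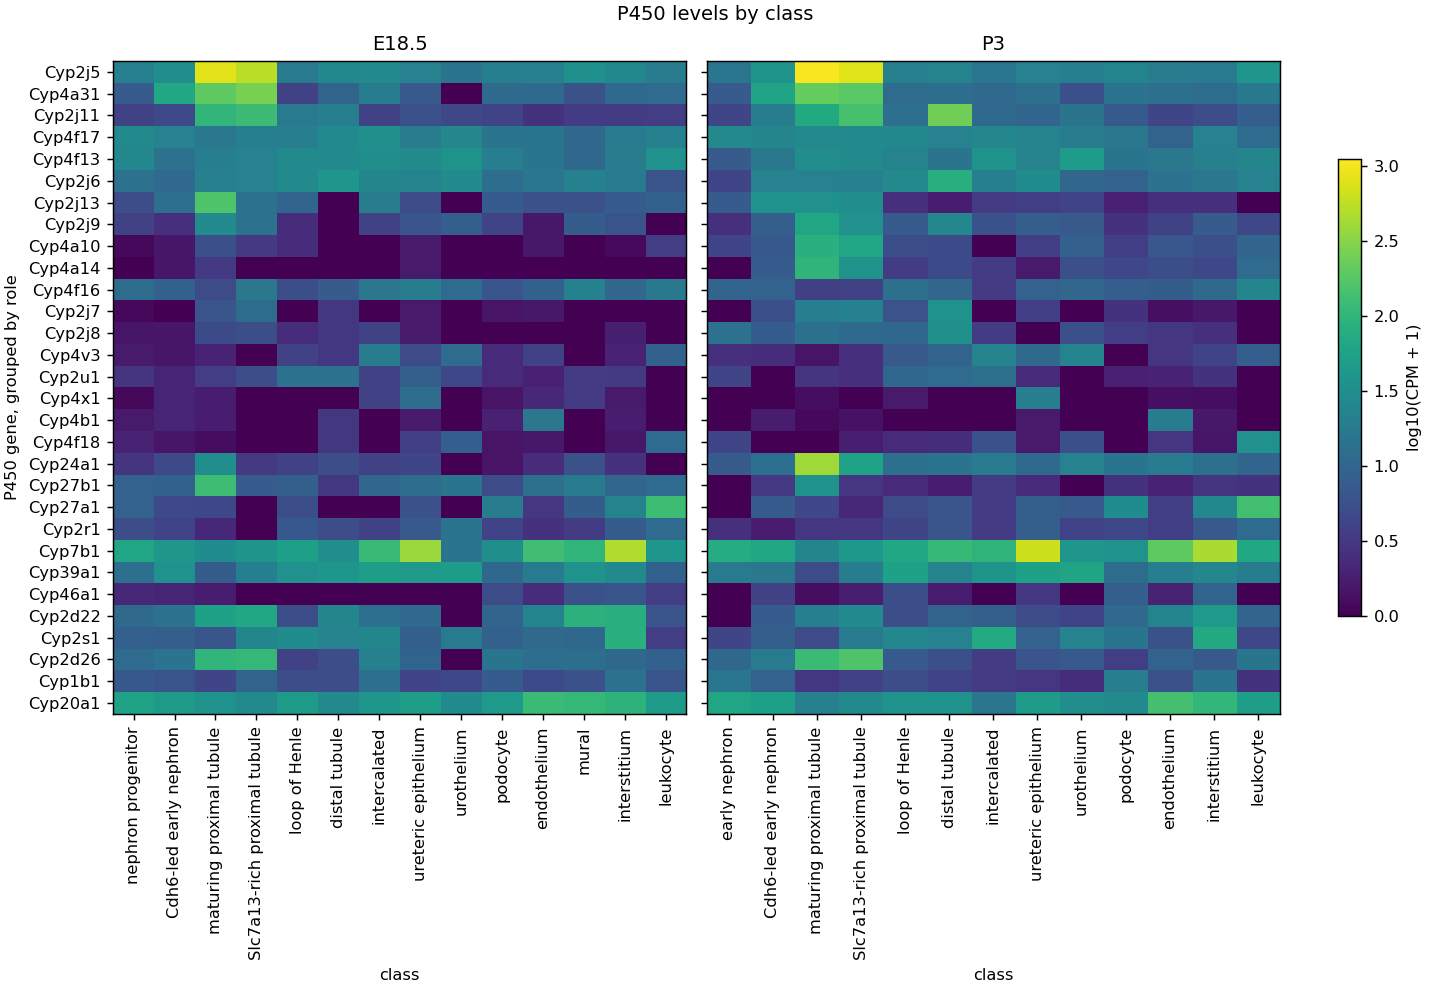
Levels of the P450 genes with the most UMIs (rows, grouped by role) in each class (columns) at E18.5 and P3, as log10(CPM + 1). Cyp2j5 and Cyp4a31 are bright in both proximal tubule columns at both ages, Cyp24a1, Cyp4a10 and Cyp4a14 at P3, and Cyp7b1 in the interstitium and ureteric epithelium.

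Among the arachidonic acid epoxygenases of the Cyp2j subfamily, Cyp2j5 (ENSMUSG00000052520) was the gene with the most UMIs. In maturing nuclei it had 3201 UMIs at E18.5, 812 CPM (784 to 840), and 6953 UMIs at P3, 1034 CPM. Its level in the Cdh6-led class was 29.9 and 37.4 CPM, which made the maturing level 27.2 times (20.9 to 36) and 27.7 times (21 to 37.3) as high. At E18.5 this ratio was 12.1 (9.24 to 16.1) with the Slc5a12-led cluster alone and 18.9 when nuclei were clustered with 20 neighbours. The likeness of the 2 ages therefore depended on which E18.5 nuclei were used. In the 11 other classes of E18.5 and the 10 of P3 the median level was 21.1 and 20.2 CPM, and no such class was above 37.5 CPM. Within proximal tubule the gene extended into the Slc7a13-rich class, at 549 and 788 CPM. After thinning, 40.9% and 55.7% of maturing nuclei carried a Cyp2j5 UMI, against 1.998% and 1.52% of endothelium-like nuclei.

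At E18.5 the maturing class was not uniform for this subfamily. The Slc22a27-rich cluster held 1316 CPM of Cyp2j5 and the Slc5a12-led cluster 361 CPM, a ratio of 3.64 (3.36 to 3.96). For Cyp2j11 the same clusters held 181 and 28.3 CPM, a ratio of 6.40 (4.84 to 8.59). Other members differed less between them, Cyp2j13 by 1.57 times, Cyp27b1 by 1.85 times and Cyp24a1 by 1.10 times (0.759 to 1.60). Summed over all members, the Slc22a27-rich cluster stood at 2487 CPM and the Slc5a12-led cluster at 1144 CPM. The age ratios of Cyp2j5 and Cyp2j11 therefore turn on which E18.5 nuclei are used. With both clusters the P3 to E18.5 ratio was 1.27 (1.22 to 1.33) for Cyp2j5 and 0.692 (0.604 to 0.793) for Cyp2j11, and with the Slc5a12-led clusters alone it was 2.86 and 2.45.

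Cyp2j13, at the far end of the array from Cyp2j5, was lower at P3 in maturing nuclei. It stood at 159 CPM (147 to 172) at E18.5 and 33.8 CPM (29.5 to 38.4) at P3, a ratio of 0.212 (0.182 to 0.247) that was 0.269 in the Slc5a12-led clusters alone. Among the genes between them, Cyp2j11 was also lower at P3 over the whole class, Cyp2j6 had a ratio of 1.07 (0.809 to 1.42) and Cyp2j12 was hardly detected. Cyp2j9, Cyp2j7 and Cyp2j8 were instead higher at P3, from 28.4 to 61.0 CPM (2.15 times), from 5.33 to 19.3 CPM (3.63 times) and from 3.80 to 12.3 CPM (3.24 times). In the Slc7a13-rich class Cyp2j13 had only 6 UMIs at E18.5 and 75 at P3, or 13 and 30.4 CPM, and in the Cdh6-led class it had 12.1 and 35.1 CPM. So its E18.5 excess was found in the maturing class, and by P3 all 3 classes were near 30 to 35 CPM.

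A second site of Cyp2j expression was the distal nephron, where several members were higher at P3. At E18.5 the distal class already had the highest Cyp2j6 value of any class, though within counting error of the next. In Slc12a3-led distal tubule-like nuclei, which carry the thiazide-sensitive sodium chloride cotransporter, Cyp2j11 had 9 UMIs at E18.5, 19.3 CPM (8.83 to 36.6), and 251 UMIs at P3, 388 CPM (342 to 439), a ratio of 20.1 (10.4 to 44.5). Its P3 level there was above the 69.5 CPM of maturing and the 143 CPM of Slc7a13-rich nuclei. Cyp2j6 was at 38.6 and 110 CPM (2.84 times, 1.68 to 5.07), Cyp2j7 had 1 and 40 UMIs, Cyp2j8 1 and 13, and Cyp2j9 0 and 21, the last at least 5.05-fold higher against a floor of 3 UMIs. Cyp2j5 did not follow, with 12 and 10 UMIs, or 25.7 and 15.5 CPM. As a result Cyp2j11 made up 61.7% of the Cyp2j UMIs of these nuclei at P3 and Cyp2j5 2.46%, whereas in maturing nuclei Cyp2j5 made up 82.6%. Only Cyp2j11 and Cyp2j6 reached 50 UMIs in this comparison, both through their P3 UMIs, with fewer than 50 at E18.5. Both were at least 2 times higher, beside 3.58% of all genes higher and 10.5% lower. Because their P3 level let them in, this count is no separate support for a distal difference. The clusters were small, 144 nuclei at E18.5 and 115 at P3. With a further 129 distal tubule-like nuclei of P3, led by Plppr1 and Scnn1b, the level of Cyp2j11 over the whole distal class was 247 CPM.

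**Figure D3:**
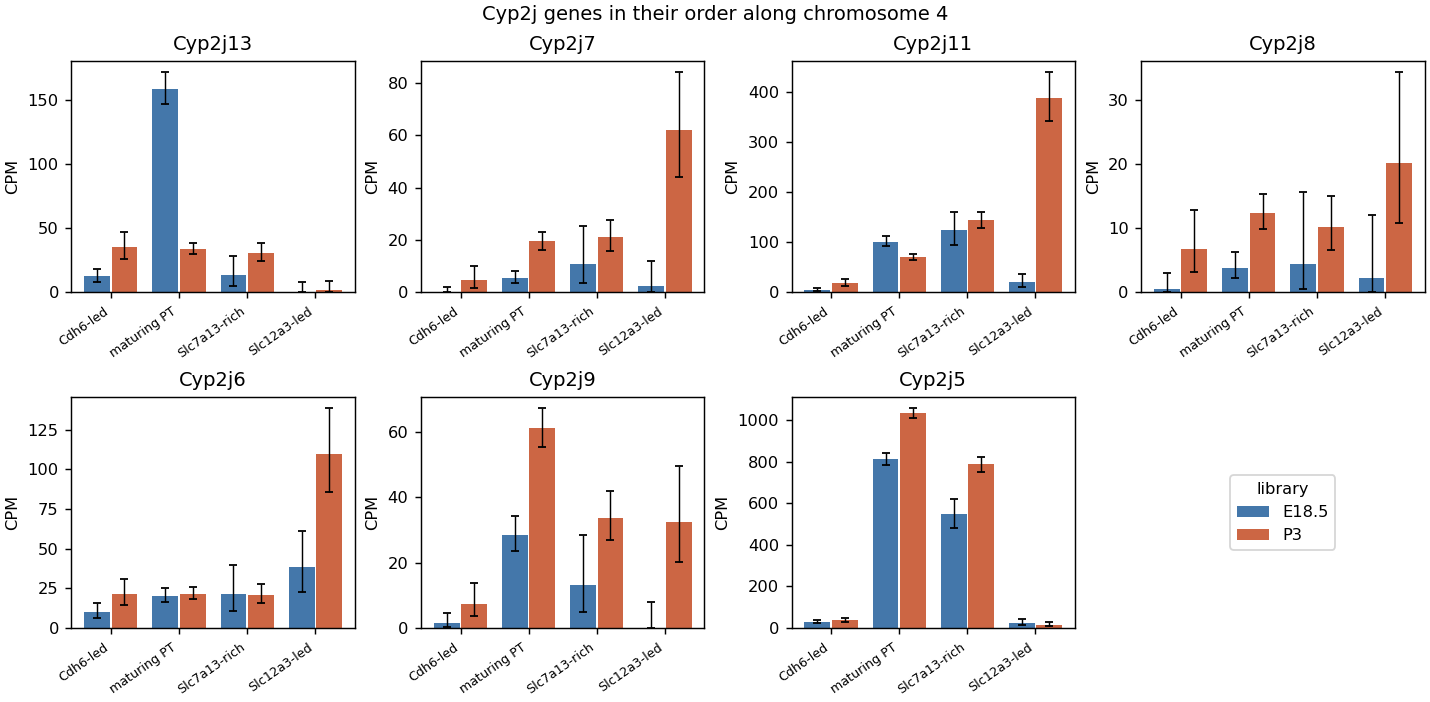
Levels in CPM (y axes, each gene on its own scale) of 7 Cyp2j genes in the Cdh6-led, maturing proximal tubule (PT), Slc7a13-rich and Slc12a3-led nuclei at E18.5 and P3, with 95% counting intervals. Cyp2j5 is tallest in the proximal classes, Cyp2j13 in E18.5 maturing nuclei, and Cyp2j11, Cyp2j6, Cyp2j7 and Cyp2j8 in Slc12a3-led nuclei at P3.

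The Cyp4a enzymes, fatty acid omega-hydroxylases under control of the receptor Ppara, divided by age. Cyp4a31 was already present at E18.5, at 193 CPM (180 to 207) in maturing and 267 CPM (222 to 318) in Slc7a13-rich nuclei, and stood at 213 and 183 CPM at P3. Cyp4a10 had 18 UMIs in maturing nuclei at E18.5 and 577 at P3, 4.57 and 85.8 CPM, a ratio of 18.8 (11.8 to 31.9). Cyp4a14 had 9 and 665 UMIs, 2.28 and 98.9 CPM, a ratio of 43.3 (22.7 to 95.2). Both genes thus had few UMIs at E18.5, and in the Slc7a13-rich class they had 1 and 0 UMIs at E18.5 against 157 and 89 at P3, or 63.7 and 36.1 CPM. Cyp4a31 accounted for 95.8% of the UMIs of the 5 Cyp4a members at E18.5 and for 56.8% at P3, with Cyp4a symbols outside the rule not counted. The remaining members, Cyp4a29 and Cyp4a32, had at most 15 UMIs in either library. Of the Cdh6-led nuclei, 5.48% carried a Cyp4a31 UMI at E18.5 after thinning, and the level there was 64.4 and 59.8 CPM. It was the only Cyp4a member present in these less mature nuclei at more than 6.73 CPM.

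The vitamin D enzymes stood in opposite order in the 2 libraries, with more Cyp27b1 at E18.5 and more Cyp24a1 at P3. Cyp27b1 (ENSMUSG00000006724), the 1-alpha-hydroxylase that makes calcitriol, had 496 UMIs in maturing nuclei at E18.5, 126 CPM (115 to 137), and 244 at P3, 36.3 CPM (31.9 to 41.1), a ratio of 0.288 (0.246 to 0.337). Cyp24a1 (ENSMUSG00000038567), the 24-hydroxylase that inactivates it, had 121 UMIs at E18.5, 30.7 CPM (25.5 to 36.7), and 2761 at P3, 411 CPM (395 to 426), a ratio of 13.4 (11.2 to 16.2). In the Slc5a12-led clusters alone the ratios were 0.404 and 14.0, so both directions held there. Thinned to 1000 UMIs, 9.63% of maturing nuclei carried a Cyp27b1 UMI at E18.5 and 3.58% at P3, while for Cyp24a1 the shares were 2.22% and 24.9%. Endothelium-like nuclei carried 1.09% and 0.253% for Cyp27b1 and 0.272% and 1.90% for Cyp24a1.

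Both enzymes were found mainly in the maturing class and not throughout the proximal tubule. In Slc7a13-rich nuclei Cyp27b1 had 3 and 5 UMIs, and its level was 0.0517 (0.0106 to 0.152) and 0.0559 (0.0180 to 0.132) of that in maturing nuclei. Cyp24a1 there was at 0.0707 of the maturing level at E18.5, from 1 UMI, and at 0.137 (0.115 to 0.163) at P3. Against the Cdh6-led class, Cyp27b1 was 16 and 16.2 times higher in maturing nuclei and Cyp24a1 8.37 and 34.3 times. The liver-type 25-hydroxylase Cyp2r1 stayed at or under 3.14 CPM in these 3 classes at both ages. Cyp27a1, a mitochondrial sterol 27-hydroxylase, was highest in leukocytes instead, at 126 CPM (93.0 to 167) and 132 CPM (104 to 166) in leukocyte-like nuclei, and stood at 18.8 and 29.8 CPM in podocyte-like and 3.55 and 3.42 CPM in maturing nuclei.

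**Figure D4:**
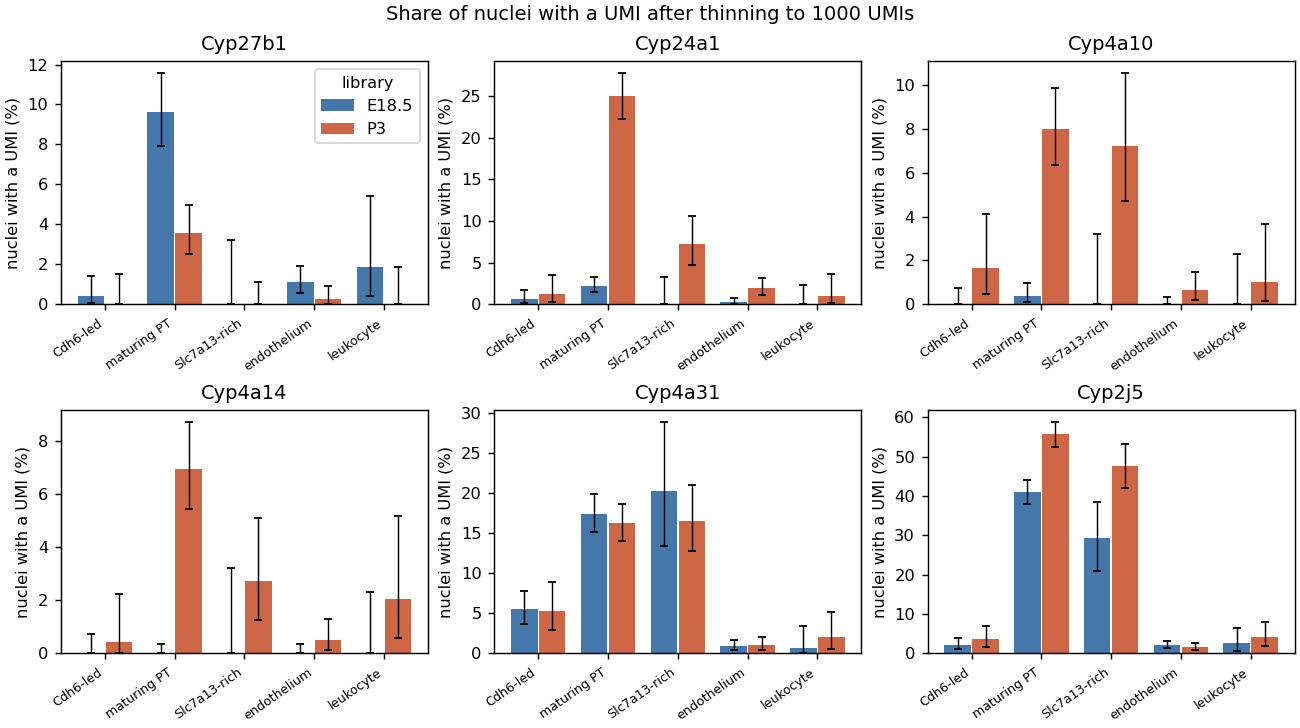
Percent of nuclei with at least 1 UMI of 6 P450 genes (y axes) after each nucleus was thinned to 1000 UMIs, in 3 nephron classes and in endothelium- and leukocyte-like nuclei, with exact 95% intervals. Cyp24a1 reached 24.9% of maturing proximal tubule (PT) nuclei at P3 from 2.22% at E18.5, and Cyp27b1 3.58% from 9.63%.

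Over all members with at least 50 UMIs in maturing nuclei, 6 of 19 were at least 2 times higher at P3 than at E18.5 and 3 were at least 2 times lower, beside 5.85% and 15.4% of all genes. The higher members were Cyp24a1, Cyp2j7, Cyp2j8, Cyp2j9, Cyp4a10 and Cyp4a14, the lower ones Cyp27b1, Cyp2d22 and Cyp2j13, and the median log2 ratio was 0.23 against -0.18 over all genes. In Slc7a13-rich nuclei 5 of 18 were higher (Cyp24a1, Cyp2j9, Cyp2j13, Cyp4a10 and Cyp4a14) and 1 lower (Cyp2d22), beside 8.96% and 8.26% of all genes. That class held 2466345 UMIs at P3 against 461124 at E18.5, and all 5 higher members passed the 50-UMI rule through P3. In maturing nuclei Cyp4a10, Cyp4a14, Cyp2j7 and Cyp2j8 did so too. Both counts of higher members are therefore no separate support for a difference of the whole family. Cyp2j13 had age ratios in opposite directions in the 2 proximal tubule classes. The Slc7a13-rich ratio rested on few E18.5 UMIs and may not compare like nuclei.

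**Figure D5:**
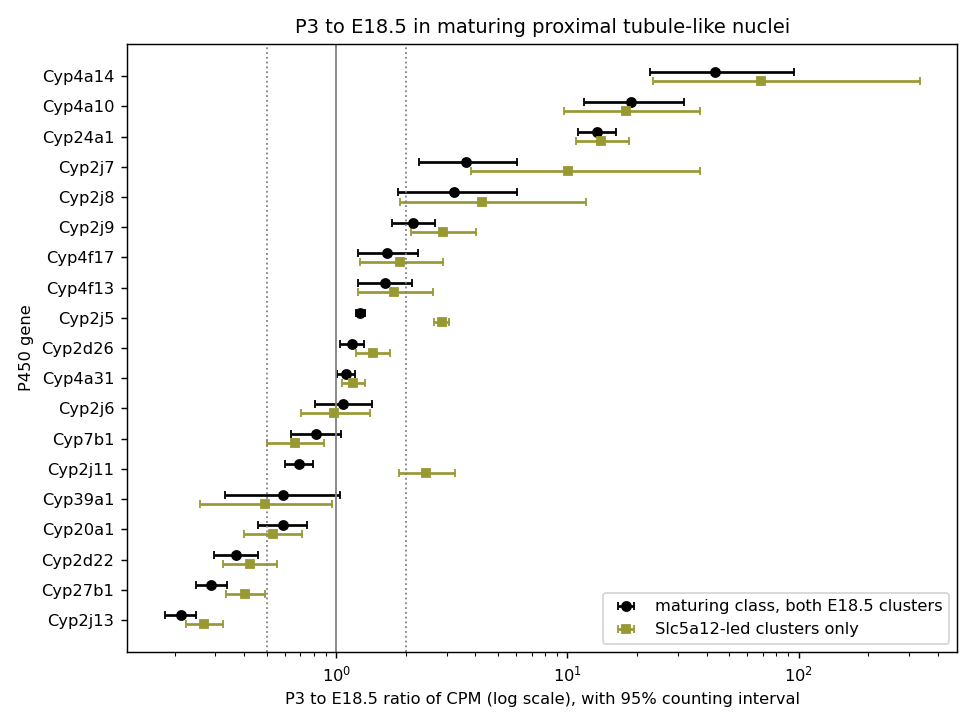
Ratio of the P3 to the E18.5 level (x axis, log scale) of the 19 P450 genes (y axis) with at least 50 UMIs in maturing proximal tubule-like nuclei, with 95% counting intervals, for the whole class (circles) and for Slc5a12-led clusters alone (squares). Dotted lines mark 0.5 and 2, and only Cyp2j5, Cyp2j11 and Cyp39a1 cross one of them between circle and square.

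Xenobiotic-type P450 genes were the largest group, with 26 of 49 under 10 UMIs over both libraries. The 7 Cyp3a and 15 Cyp2c members together gave 12 and 50 UMIs at E18.5 and 62 and 95 at P3. The largest of them at P3 was the arachidonic acid epoxygenase Cyp2c23, named after its values were seen, with 45 UMIs. The hepatocyte markers in the list of 7 genes summed to 35.5 and 34.3 CPM over all kept nuclei. Cyp2d26 was the main proximal tubule gene of the group, at 102 CPM (92.0 to 112) and 119 CPM (111 to 128) in maturing and 106 and 159 CPM in Slc7a13-rich nuclei. It was 7.47 (5.02 to 11.6) and 6.94 (4.59 to 11) times higher in maturing than in Cdh6-led nuclei. Cyp2d22, on the same chromosome, had a wider range at E18.5, with 81.9 CPM in interstitium-like and 54.0 CPM in maturing nuclei, and was lower at P3 in both, at 43.9 and 19.9 CPM (0.536, 0.482 to 0.595, and 0.369, 0.295 to 0.460).

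Other xenobiotic-type genes with 100 UMIs lay outside the nephron or were low. Cyp2s1 was an interstitial gene at 85.9 CPM (80.4 to 91.7) and 70.6 CPM (66.2 to 75.1), and at P3 intercalated-like nuclei had a similar level, 71.6 CPM (48.0 to 103). Cyp1b1, which oxidises estrogens and polycyclic hydrocarbons, was at 13.1 and 14.0 CPM in interstitium-like nuclei and at 19.0 CPM in podocyte-like nuclei at P3. Cyp2e1, the ethanol-inducible form that is abundant in adult kidney and liver, had 10 and 20 UMIs in maturing nuclei, or 2.54 and 2.97 CPM, so it was barely detected at either age.

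The gene with the most UMIs over both libraries was highest outside the proximal tubule, although at P3 Cyp2j5, with 16437 UMIs, exceeded it. Cyp7b1 (ENSMUSG00000039519), the oxysterol 7-alpha-hydroxylase, had 16803 and 15369 UMIs. In interstitium-like nuclei it stood at 479 CPM (466 to 492) and 464 CPM (453 to 475), a ratio of 0.969 (0.934 to 1.01). Ureteric epithelium-like nuclei had 388 CPM (358 to 421) and 664 CPM (623 to 707), a ratio of 1.71 (1.54 to 1.90). The ureteric clusters of the 2 ages had different leading genes, so this ratio may not compare like nuclei. Endothelium-like nuclei followed with 128 and 194 CPM, and maturing nuclei were far below with 29.7 and 24.2 CPM. After thinning, 34.9% and 32.4% of interstitium-like and 28.1% and 43.6% of ureteric nuclei carried a Cyp7b1 UMI, against 1.83% and 2.15% of maturing nuclei. Among unnamed clusters, an Nrg3-led cluster of 612 nuclei and an Nrxn3-led cluster of 470 nuclei at E18.5 reached 597 and 598 CPM. The Nrg3-led cluster shared leading genes with the ureteric cluster of P3, which stood at 664 CPM.

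Other sterol enzymes were present at lower levels, and the classical bile acid enzymes were not. Cyp39a1, a 24-hydroxycholesterol 7-alpha-hydroxylase, was spread over distal and collecting epithelia, at 43.5 and 54.9 CPM in ureteric, 33.6 and 54.4 CPM in loop of Henle-like and 45.9 and 59.6 CPM in urothelium-like nuclei. In maturing nuclei it had 27 UMIs at each age, 6.85 and 4.02 CPM, and at E18.5 its level was 0.201 (0.123 to 0.319) of that in Cdh6-led nuclei. Cyp46a1, the cholesterol 24-hydroxylase, was at 5.61 and 8.41 CPM in interstitium-like nuclei. Cyp7a1, the rate-limiting enzyme of bile acid synthesis, had 1 UMI and Cyp8b1 1 UMI over both libraries.

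Among the remaining members, some were found mainly in 1 class and others were broad. Cyp4b1 was at 15.3 CPM (11.4 to 20.03) and 18.7 CPM (14.1 to 24.3) in endothelium-like nuclei and at no more than 2.14 CPM in any other class. Cyp20a1, less restricted, was also highest there, at 118 and 141 CPM, with 93.6 and 104 CPM in interstitium-like nuclei, and it was lower in maturing nuclei, at 34.7 and 20.4 CPM. At E18.5 its endothelial level was within counting error of the 106 CPM of mural-like nuclei, a ratio of 1.12 (0.820 to 1.56). Cyp4x1 was at 11.4 and 19.0 CPM in ureteric nuclei and at 43.7 CPM (35.2 to 53.7) in the Nrg3-led cluster of E18.5. That cluster shared leading genes with the ureteric cluster of P3. A group of Cyp4f genes outside the naming rule was chosen after values were seen. Cyp4f15 was at 28.2 and 70.3 CPM in urothelium-like nuclei, which numbered 78 and 71, and Cyp4f39 had 1 and 15 UMIs there. Cyp4f18, a leukotriene B4 hydroxylase, was at 10.5 and 33.9 CPM in leukocyte-like nuclei. Cyp4f17 and Cyp4f13 were spread over many classes at low levels. Cyp4f17 lay between 8.34 CPM in endothelium-like and 28.0 CPM in Slc7a13-rich nuclei at P3, and Cyp4f13 between 6.58 CPM in early nephron-like and 45.9 CPM in urothelium-like nuclei.

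Steroid synthesis genes were almost absent. Cyp11a1, the side-chain cleavage enzyme, had 26 and 39 UMIs, and the other 5 members of the group had 5 or fewer at E18.5 and 6 or fewer at P3. The adrenal cortex list of 7 markers summed to 1434 and 744 UMIs over the kept nuclei. Of the P3 UMIs of Cyp11a1, 7 came from 3 nuclei of a leukocyte-like cluster of 70 nuclei, and Cyp4f18 had 14 UMIs in 11 nuclei of the same cluster.

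Most partners of the P450 enzymes were not past 2-fold in maturing nuclei, although at P3 a larger share of them was than of all genes. Among 28 genes for electron donors, haem synthesis, regulators, epoxide hydrolases and P450s with other symbols, 2 of 23 at E18.5 and 7 of 24 at P3 were at least 2 times higher in maturing than in Cdh6-led nuclei, and 1 was lower at each age. These shares stand beside the 9.65% and 12.6% of all genes that were higher and the 11.4% and 15.9% that were lower. Median log2 ratios of the partners were 0.10 and 0.54, against -0.14 and -0.22 over all genes. Nuclear receptors made up both of the higher ones at E18.5 and 4 of the 7 at P3. Ppara, the fatty acid receptor, was 6.02 and 8.87 times higher and the vitamin D receptor Vdr 3.41 and 3.72 times. At P3 Nr1i2 and Nr1i3, the xenobiotic receptors PXR and CAR, were 11.5 (4.86 to 35.6) and 14.3 (3.90 to 119) times higher. Por, the reductase that feeds microsomal P450s, was at 86.2 and 135 CPM in maturing nuclei, 1.83 and 2.18 times the Cdh6-led level. None of the 8 electron donors was past 2-fold at E18.5, and Por was the only one at P3. Across all classes of P3, a proximal tubule class held the highest level of Cyb5a, Alad, Cpox, Ppox, Nr1i2, Nr1i3, Ppara and Ephx2. For Cyb5a the ratio to the next class was 1.18 (0.868 to 1.65), and the other partners were highest elsewhere.

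Between the ages, 3 of 27 partners were at least 2 times higher at P3 in maturing nuclei and 5 were lower, beside 5.85% and 15.4% of all genes. Nr1i2 went from 11.9 to 42.8 CPM (3.59, 2.63 to 5.00), Ppara from 123 to 265 CPM (2.15, 1.95 to 2.39) and Nr1i3 from 10.1 to 21.4 CPM (2.11, 1.478 to 3.08). Vdr was just under the threshold, from 85.7 to 170 CPM (1.98, 1.75 to 2.24), and past it in the Slc5a12-led clusters alone (2.90). On the lower side were Ahr, the dioxin receptor, at 0.488 (0.385 to 0.618), the cholesterol synthesis enzyme Cyp51 at 0.363 (0.303 to 0.434), Fdxr, Ptgis and Urod. In Slc12a3-led nuclei Vdr was at 199 and 419 CPM (2.10, 1.65 to 2.69) and Ppara at 129 and 46.4 CPM (0.360, 0.224 to 0.568).

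Low levels of the proximal tubule genes were found in classes that are not proximal tubule. For some genes the age difference in interstitium-like nuclei had the same direction as in maturing nuclei, and for Cyp2j5 it did not. In interstitium-like nuclei Cyp24a1 was at 1.71 and 12.3 CPM, Cyp4a10 at 0.190 and 4.53 CPM, Cyp27b1 at 9.04 and 1.94 CPM and Cyp2j13 at 6.56 and 1.58 CPM. These were 5.58% and 2.995%, 4.17% and 5.28%, 7.18% and 5.35%, and 4.13% and 4.69% of the respective maturing levels. Cyp2j5 was at 25.4 and 17.5 CPM in interstitium-like nuclei, lower at P3 (0.688, 0.576 to 0.822), or 3.13% and 1.69% of a maturing level that was higher at P3. Of 23 members compared between the ages in interstitium-like nuclei, 3 were at least 2 times higher at P3 (Cyp24a1, Cyp4a10 and Cyp4v3) and 2 lower (Cyp27b1 and Cyp2j13), beside 3.3% and 12.2% of all genes. Of these 5 genes, all but Cyp4v3 had the same direction as in maturing nuclei. Free RNA was not removed from the counts, and its part in these values was not tested. Cyp4v3 was at 0.951 and 3.16 CPM in interstitium-like nuclei, from 10 and 44 UMIs, and at 1.01 and 0.446 CPM in maturing nuclei, from 4 and 3 UMIs.

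Because each library pooled both sexes, proximal tubule-like nuclei of both classes were split by an Xist UMI without a Y-linked UMI or the reverse. This gave 814 and 127 nuclei at E18.5 and 555 and 373 at P3, with 177 and 345 nuclei that had both and 39 and 38 that had neither. The summed P450 level of the Xist nuclei was 0.883 (0.824 to 0.947) of that of the Y-linked nuclei at E18.5 and 1.05 (1.01 to 1.08) at P3. That later value became 1.03 (0.998 to 1.07) once doublet-scored nuclei were dropped, an interval that included 1. At E18.5 Cyp2j5 was at 761 CPM in Xist and 937 CPM in Y-linked nuclei, a ratio of 0.812 (0.735 to 0.899), and at P3 its ratio was 1.02 (0.971 to 1.08). At P3 Cyp24a1 was at 371 CPM in Xist and 241 CPM in Y-linked nuclei, a ratio of 1.54 (1.40 to 1.70), Cyp27b1 at 21 and 36.1 CPM, 0.581 (0.424 to 0.797), and Cyp4a14 at 74.5 and 104 CPM, 0.715 (0.601 to 0.851). The vitamin D pair thus differed in opposite directions at P3. At E18.5 their intervals included 1. Cyp24a1 was then at 1.49 (0.746 to 3.37), from 81 and 9 UMIs, and Cyp27b1 at 0.930 (0.708 to 1.24). Several of the 25 members compared had few UMIs in these nuclei, so an interval that includes 1 does not show equal levels. The interval included 1 for 23 at E18.5 and 20 at P3, and the same share over all genes was not computed. The remaining exceptions were Cyp2s1, with ratios of 0.289 at E18.5 and 2.21 at P3, and Cyp4f16, lower in Xist nuclei at P3. Cyp2s1 had 14 and 8 UMIs at E18.5 and 35 and 10 at P3. The 2 proximal tubule classes, pooled here, differed in both vitamin D genes. Whether their mix differed between Xist and Y-linked nuclei was not tested. The number of mice of each sex in a pool is not given in the sources used here, and a difference between litters or mice cannot be told apart from one between sexes.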

How the data were processed

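Nuclei from pooled, snap-frozen kidneys were sequenced with the 10x 3′ kit. The authors deposited raw UMI counts per gene and nucleus. Per the labels the reads were counted on mm10 with Cell Ranger 5.0.1, while the E18.5 matrix header names release 7.0.0. The annotation and the treatment of intronic reads are not given in the sources used here.

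Members and gene lists were chosen with earlier results of these data known. Nuclei lower than the median by over 3 median absolute deviations in UMIs or genes, or above it (and by at least 0.5 percentage points) in mitochondrial share, were removed, as in the study's methods. Doublets were scored with Scrublet (scanpy 1.11.5). Clusters came from 2000 variable genes without Cyp genes, 50 components, a graph of 10 neighbours and Walktrap (scran 1.30.0). A cluster was named from at least 3 raised markers of a list. Where no more than 50% of the list was raised, a marker also had to be among its 10 leading genes. It was left unnamed where over 50% of its nuclei scored as doublets, where a second class scored close, or where the leading genes held more markers of another class. Classes under 50 nuclei were left out. No cluster could be named immature proximal tubule, so the planned comparison used the Cdh6-led class instead.

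UMIs were summed per class. Poisson intervals, and binomial intervals for ratios, are exact. Coverage was checked for the ratio intervals only, on simulated Poisson counts, which cannot address spread between nuclei or mice. A gene was compared with at least 50 UMIs over both groups, a count of 0 was set to 3 UMIs, and a 2-fold difference was counted. Named were the 25 members with most UMIs, all vitamin D and steroid genes, the leading gene of each subfamily with at least 100 UMIs and the 28 partners. Alternatives changed the neighbours, clustering, scaling, depth, threshold and doublet rule.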

Additional observations from a re-analysis of the deposited data

Results flagged for a closer look

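The age ratio of Cyp2j13 pointed in opposite directions in different classes. Its P3 to E18.5 ratio was 0.212 in maturing proximal tubule-like and 0.241 in interstitium-like nuclei, and 2.91 in Cdh6-led early nephron-like and 2.34 in Slc7a13-rich nuclei. The difference between the classes was not tested, since each age has 1 library. The interstitial value came from 69 and 22 UMIs, and the Slc7a13-rich value from 6 and 75. Marker levels of the Slc7a13-rich class also differed between the ages, so that ratio may not compare like nuclei.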

How the results depend on the processing

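With 1 library per age no alternative could be tested against replicate spread, and these results rest on counting error alone. No paired analysis was possible because each age has 1 library. For 52 named ratios the alternatives gave 191 values, of which 161 moved by less than their counting interval, 30 moved by more and 0 turned a ratio past 2-fold to the other direction. Among smaller P3 to E18.5 ratios in maturing nuclei, the direction did turn for Cyp2j11 (1.02 with Leiden clustering and 2.45 with Slc5a12-led clusters, from 0.692), for Cyp2d26 (0.963 with 20 neighbours, from 1.17) and for Cyp2j5 (0.986 with 20 neighbours, from 1.27), and Cyp2j6, near 1, was 0.983 with Slc5a12-led clusters. Cyp2j6 and Cyp2j13, near 1 against the Cdh6-led class at P3, were 0.927 without called doublets and 1.12 with median-ratio scaling. The summed maturing to Cdh6-led ratio at E18.5 was 4.11 with 20 neighbours, 4.60 with doublet-rich clusters named, 3.26 with Slc5a12-led nuclei alone, 5.62 without Cyp7b1 and 3.01 without Cyp2j5, and at P3 it was 3.79, 5.99 and 3.17 with doublet-rich clusters named, without Cyp7b1 and without Cyp2j5. The number of members lower in the maturing class was 0 at both ages after thinning to 1000 UMIs, and at P3 it was 5 from 20 UMIs and 0 with doublet-rich clusters named. For P3 against E18.5, 3 members were higher after thinning and 4 with doublet-rich clusters named, from 6, and 5 were lower with Leiden clustering and with a fold of 1.5. Shares of maturing nuclei with a member UMI were 87.6% and 97.1% at 2000 UMIs and 92.1% and 99.2% without thinning. Among single genes, Cyp2j5 had a P3 to E18.5 ratio of 2.001 with Leiden clustering, and Cyp4a31 was 1.34 times higher in maturing than in Cdh6-led nuclei at E18.5 with 20 neighbours. Under Leiden clustering, and with 20 neighbours at P3, no Cdh6-led class formed, so that comparison gave no value. The doublet-rich, Slc5a12-led and Cyp2j5 alternatives were chosen after seeing the data.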
